A study of Homo sapiens with 4 samples.

Results

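Chromosome 8 carried 18857 of the 192845 A3B peaks called in OMM2.3 and 92.1, a pair of uveal melanoma lines. Its peaks were taken from both peak lists by position alone and divided at 45200000 on GRCh38. Those ending before that position were assigned to the short arm and those starting at or after it to the long arm, and 0 peaks crossed it. OMM2.3 gave 522 short-arm and 3141 long-arm peaks out of 56167 on all chromosomes. The other line, 92.1, gave 4217 and 10977 out of 136678. Chromosome 8 holds 5.25% of the autosomal bases outside assembly gaps. It held 6.52% of all OMM2.3 peaks and 11.1% of all 92.1 peaks, lists of which 55061 and 134484 peaks were autosomal.

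A3B (APOBEC3B) is a nuclear cytidine deaminase that turns cytosine into uracil in single-stranded DNA, and it is known as a source of mutations in cancer. Uveal melanoma is the melanoma of the pigmented inner coat of the eye. Gain of the long arm of chromosome 8, often with loss or no change of the short arm, is common in this tumour. A region present in more copies yields more DNA fragments per base in an immunoprecipitate and in its IgG control alike, so the arms are a place where A3B peaks and control signal can be set side by side.

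The study asked how A3B relates to R-loops, which are RNA:DNA hybrids with a displaced strand, and mapped A3B on DNA by ChIP-seq, the sequencing of DNA fragments that an antibody pulls down with the protein bound to them. OMM2.3 is a line grown from a liver metastasis and 92.1 a line from a primary tumour. Each line gave 1 library with the A3B antibody (Abcam) and 1 with normal rabbit IgG (CST) from formaldehyde-fixed cells grown in RPMI1640 with fetal bovine serum, with no other treatment named. Neither a line without A3B nor a normal melanocyte culture was among the 4 samples, and the peak lists hold no expression by which the cell type could be checked.

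With 1 A3B library per line and no replicates, no test between lines or between arms was possible. Intervals are exact 95% intervals that cover counting error only, and they are too narrow where neighbouring peaks depend on each other. Peaks were shallow in both lines. On either arm, the median chromosome 8 peak had 6 fragments in OMM2.3 and 5 in 92.1, and the q-value was 1 for 98.9% and 99.3% of the short-arm and long-arm peaks of OMM2.3 and for 94.2% and 94.1% of those of 92.1.

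The arms differed in peak density in OMM2.3 far more than in 92.1. The short arm spans 45.0 Mb and the long arm 99.8 Mb outside assembly gaps. OMM2.3 had 11.6 peaks per Mb on the short arm (10.6 to 12.6) and 31.5 on the long arm (30.4 to 32.6), a ratio of long to short arm of 2.71 (2.47 to 2.98). In 92.1 the densities were 93.7 peaks per Mb (90.9 to 96.6) and 110.0 (108 to 112), a ratio of 1.17 (1.13 to 1.22). Both differences between arms were larger than the counting error, and the ratio of OMM2.3 was 2.31 times that of 92.1. The long-arm excess of 92.1 lay in peaks of 3 to 5 fragments. At 5 fragments 92.1 had 31.3 peaks per Mb on the short arm and 38.1 on the long arm. At 6 fragments it had 21.7 and 20.4, and at 8 or more 3.40 and 2.68, with the short arm the denser. OMM2.3 had 1.27 and 3.79 at 8 or more. Its long arm was denser at each number from 4 to 9, and its short arm, on few peaks, from 10 to 12.

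Seen from the other side, the 92.1 list exceeded the OMM2.3 list by unequal factors on the arms. There were 8.08 times as many 92.1 peaks on the short arm (7.37 to 8.86) and 3.49 times as many on the long arm (3.36 to 3.64). The 92.1 list was also the longer over all chromosomes, with 136678 peaks against 56167. Over 39 autosomal arms of at least 10 Mb this ratio ran from 0.839 to 13.1, and the long arm of chromosome 8 ranked 16. The short arm held 14.3% of the chromosome 8 peaks of OMM2.3 and 27.8% of those of 92.1. At strict thresholds the ratio of the arms could not be resolved. With peaks of a p of at most 1e-05, it was 0.902 in OMM2.3 (0.242 to 4.09, from 4 and 8 peaks) and 0.902 in 92.1 (0.577 to 1.44, from 31 and 62 peaks). Both intervals include 1 and also the ratio over all peaks of the line. All 4 of these short-arm peaks of OMM2.3, and 3 of its 8 long-arm peaks, lay in the repeated satellite sequence of the centromere.

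Windows of 1 Mb, counted outward from the boundary, showed that the OMM2.3 difference ran along the whole arms. The 45 short-arm windows of OMM2.3 had between 0 and 38.0 peaks per Mb, with a median of 10.0. Its 100 long-arm windows had between 12.0 and 71.7, with a median of 30.0. The arms overlapped, but 100 of the 100 long-arm windows exceeded the short-arm median and 1 of the 45 short-arm windows exceeded the long-arm median. That window was the one at the boundary, which is made of centromeric satellite, and without the 3 windows next to the boundary the highest short-arm value was 23.

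Set against the other autosomes, the short arm of OMM2.3 was sparse and its long arm dense. The median of 2620 windows on the other 21 autosomes was 17.0 peaks per Mb in OMM2.3, a level exceeded by 47.8% of those windows. On chromosome 8 it was exceeded by 7 short-arm windows (15.6%) and by 96 long-arm windows (96.0%). In 92.1 the median of the other autosomes was 45.0 peaks per Mb and 49.1% of windows exceeded it. It was exceeded there by 43 short-arm windows (95.6%) and 100 long-arm windows (100%).

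Chromosome 8 of 92.1 was dense on both arms. Its short-arm windows had between 33.0 and 139 peaks per Mb with a median of 99.0, and its long-arm windows had between 50 and 143 with a median of 112. The 95th percentile of the other autosomes, exceeded by 4.89% of their windows in each line, was 85.0 peaks per Mb in 92.1 and 47.0 in OMM2.3. In 92.1, 32 of the 45 short-arm windows and 88 of the 100 long-arm windows lay above it, whereas OMM2.3 had 0 and 5 such windows.

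**Figure D1:**
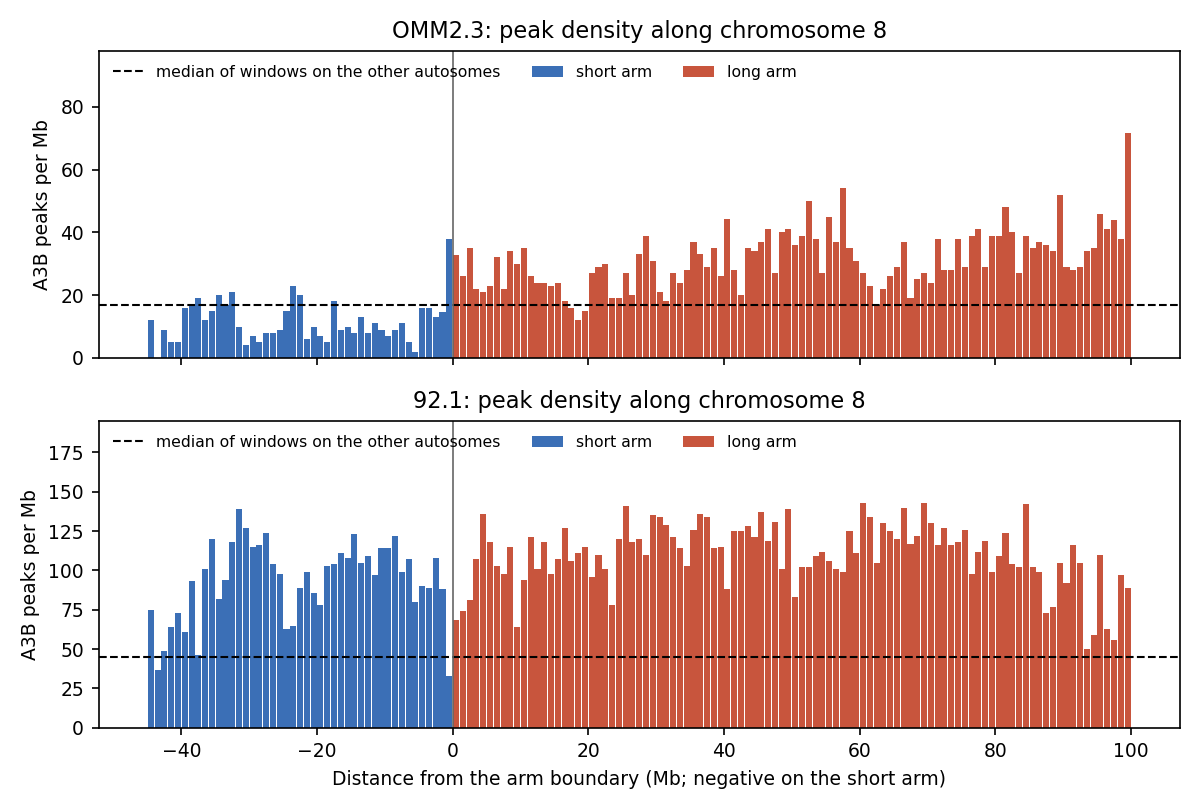
A3B peaks per Mb outside gaps (vertical axis, a scale of its own for each line) in 1 Mb windows by distance from the arm boundary in Mb (horizontal axis, negative on the short arm), with the median of the windows on the other autosomes dashed. In OMM2.3 (top) 7 of the 45 short-arm windows and 96 of the 100 long-arm windows lie above the dashed line at 17.0, and in 92.1 (bottom) 43 and 100 lie above the line at 45.0.

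Counts varied between windows by more than a constant density would give, since the variance of the window counts was 3.86 times their mean on the short arm and 2.62 times on the long arm in OMM2.3, and 6.53 and 3.87 times in 92.1. The course along the arms also differed between the lines. On the long arm of OMM2.3 density was 25.2 peaks per Mb from 0 to 34 Mb from the boundary, 33.6 from 34 to 67 Mb and 35.8 from 67 to 100 Mb. The corresponding values in 92.1 were 108.6, 117.9 and 103.6, highest in the middle. Along the short arm OMM2.3 had 12.0 peaks per Mb from 0 to 15 Mb, 10.7 from 15 to 30 Mb and 12.1 from 30 to 45 Mb, and 92.1 had 98.6, 97.5 and 85.3, with the incomplete window at the end of the arm left out.

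Some extreme windows were shared by the lines and others were not. The sparsest window of OMM2.3 on the short arm, chr8:1200001-2200000, had 0 peaks against 37 in 92.1, where it was the second sparsest of the arm. The next was chr8:39200001-40200000 with 2 peaks and the next chr8:14200001-15200000 with 4. The last of these was the second densest short-arm window of 92.1, with 127 peaks, behind chr8:13200001-14200000 with 139.

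The long arm of OMM2.3 was sparsest in 3 adjoining windows from chr8:62200001-65200000, with 16, 12 and 15 peaks. Its densest windows were the terminal one, chr8:144200001-145138636, with 63 peaks (71.7 per Mb outside gaps), chr8:102200001-103200000 with 54 and chr8:134200001-135200000 with 52. By contrast, the 3 sparsest long-arm windows of 92.1 lay towards the chromosome end, at chr8:138200001-139200000 with 50 peaks, chr8:142200001-143200000 with 56 and chr8:139200001-140200000 with 59. Its densest were chr8:105200001-106200000 and chr8:114200001-115200000 with 143 peaks each and chr8:129200001-130200000 with 142.

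Window by window, the ratio of 92.1 to OMM2.3 peaks had a median of 8.91 on the short arm, with a range of 0.868 to 40 over the 44 windows that held an OMM2.3 peak. It was above 1 in 43 of these, the exception being the satellite window at the boundary. On the long arm the median was 3.65 (range 1.24 to 9.25) and all 100 windows were above 1. Over windows, the densities of the lines had a Pearson correlation of -0.32 on the short arm (n = 45; Spearman -0.25) and -0.26 on the long arm (n = 100; Spearman -0.28), where each point shares its DNA sequence and its neighbours between the lines.

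The IgG control at the peaks differed between the arms in OMM2.3 and hardly in 92.1. For each peak the caller took as background the highest of the genome-wide IgG level and the IgG levels in the surrounding sequence, and this background was read back from the deposited fold and p-value for 100% of the chromosome 8 peaks. The genome-wide level was 1.05 fragments in OMM2.3 and 0.877 in 92.1. A background above it is called raised here. Raised backgrounds were found at 172 short-arm peaks of OMM2.3 (33.0%, 28.9 to 37.2) and at 2712 long-arm peaks (86.3%, 85.1 to 87.5), against 64.9% of all autosomal peaks of that line.

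In 92.1 the background was raised at nearly all peaks on either arm. The share was 98.3% on the short arm (97.8 to 98.6) and 99.1% on the long arm (98.9 to 99.2), against 60.8% of its autosomal peaks. The median background in 92.1 was 1.44 fragments on the short arm and 1.32 on the long arm, a ratio of long to short arm of 0.913. For OMM2.3 the medians were 1.05 and 1.26 fragments, a ratio of 1.20. The short-arm median of OMM2.3 is the genome-wide level itself, the lowest background the caller allows. Its ratio is therefore set by that limit and is not a like measure to that of 92.1. All of these backgrounds are levels at called peaks and not of the arms as a whole.

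Split by background, the arms of OMM2.3 differed in opposite directions. Peaks with a raised background had a density of 3.82 per Mb on the short arm and 27.2 on the long arm. Peaks at the genome-wide level had 7.78 per Mb on the short arm and 4.30 on the long arm. For 92.1 the raised class had 92.1 and 109.0 peaks per Mb and the class at the genome-wide level 1.62 and 1.02. The excess of long-arm peaks in OMM2.3 thus lay in the raised class. DNA copy number was not measured in these files, and the part of the IgG background in the difference between the arms was not tested.

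**Figure D2:**
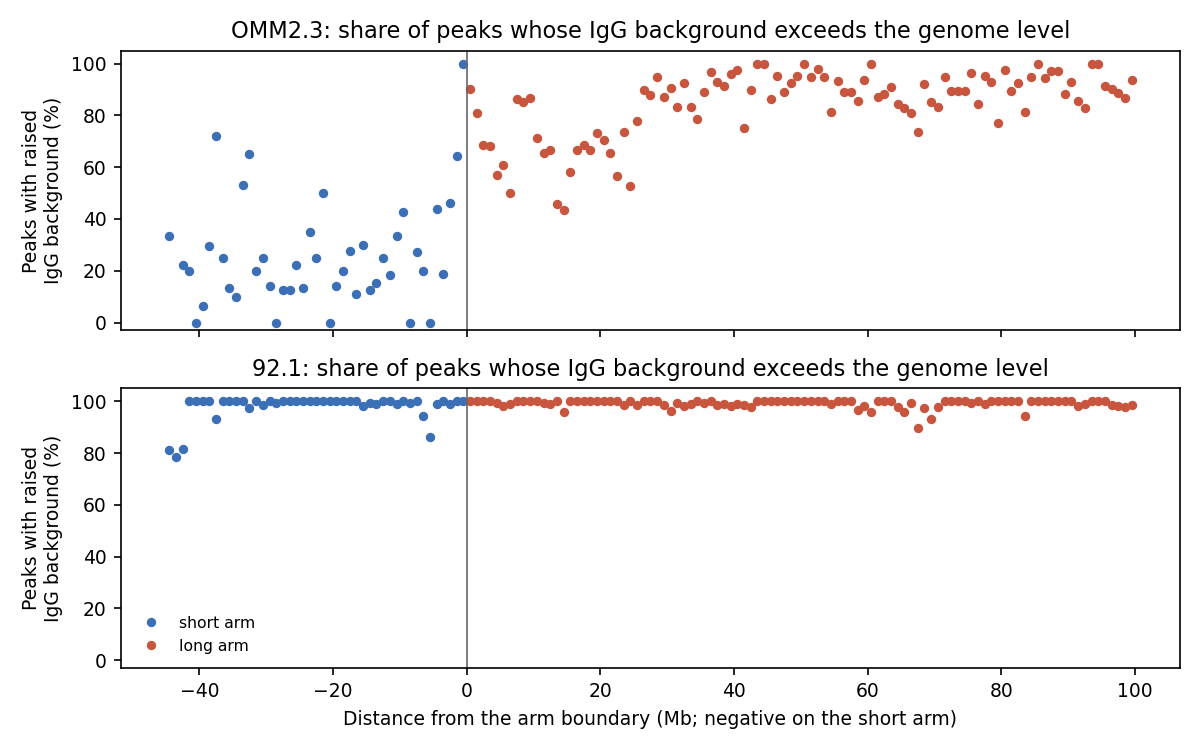
Percentage of the peaks in each 1 Mb window whose IgG background exceeds the genome-wide level (vertical axis) by distance from the arm boundary in Mb (horizontal axis), 1 point per window with a peak. The share is 33.0% over short-arm peaks and 86.3% over long-arm peaks in OMM2.3 (top), and 98.3% and 99.1% in 92.1 (bottom).

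Along the long arm of OMM2.3 the raised share was 73.4% from 0 to 34 Mb, 91.4% from 34 to 67 Mb and 91.0% beyond, lowest in the stretch where density was lowest. On its short arm the share was 44.4%, 21.3% and 32.2% from the inner to the outer stretch. Over windows, density and raised share had a Pearson correlation of 0.63 on the short arm (Spearman 0.43) and 0.47 on the long arm (Spearman 0.54) in OMM2.3. In 92.1 the values were 0.45 (Spearman -0.01) and -0.20 (Spearman -0.24), over shares that hardly varied. Points of a line share a library, and both measures come from the same peaks.

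Chromosome 8 was then placed among the other autosomes. Of 39 autosomal arms of at least 10 Mb, its short arm ranked 27 by density in OMM2.3 and 3 in 92.1, and its long arm ranked 9 and 1. The median arm had 21.9 peaks per Mb in OMM2.3 (range 2.53 to 54.4) and 52.1 in 92.1 (range 12.9 to 110.0), the chromosome 8 long arm of 92.1 being the densest of all. The ratio of 92.1 to OMM2.3 ranked 4 among the 39 arms for the short arm and 16 for the long arm.

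**Figure D3:**
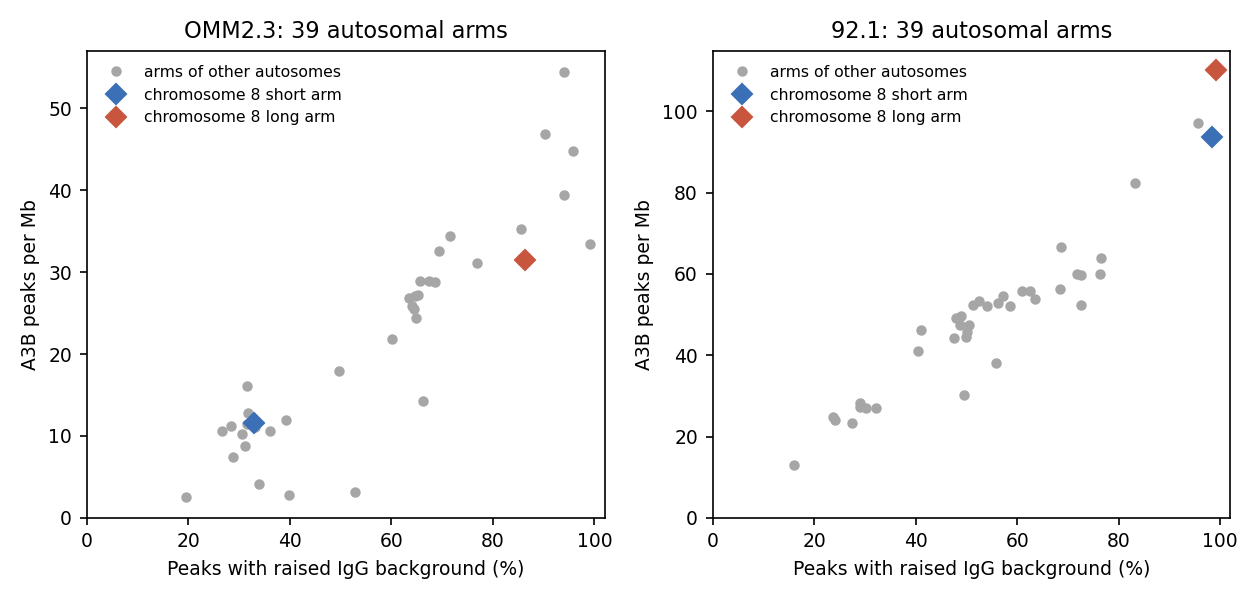
A3B peaks per Mb (vertical axis) against the percentage of peaks with a raised IgG background (horizontal axis) for 39 autosomal arms, OMM2.3 left and 92.1 right, with the chromosome 8 arms as diamonds. Chromosome 8 sits at 33.0% and 11.6 peaks per Mb (short arm) and 86.3% and 31.5 (long arm) in OMM2.3, and at the upper right in 92.1.

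Across those 39 arms, peak density and the raised share had a Pearson correlation of 0.91 in OMM2.3 (Spearman 0.89) and 0.95 in 92.1 (Spearman 0.95), again with both values of a point taken from the same peaks of 1 library. By raised share, the short arm of chromosome 8 ranked 29 and the long arm 6 in OMM2.3, and 2 and 1 in 92.1.

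A ratio of long to short arm far from 1 was not particular to chromosome 8. Among 17 autosomes with both arms of at least 10 Mb, its ratio of 2.71 in OMM2.3 ranked 3, behind chromosomes 9 (4.11) and 10 (2.91). The 16 others had a median of 0.855 and a lowest value of 0.0817, on chromosome 6. In 92.1 the chromosome 8 ratio of 1.17 ranked 7, where the 16 others ran from 0.133 (chromosome 6) to 3.01 (chromosome 1) with a median of 1.09. Of the 3 chromosomes with the highest ratios in OMM2.3, chromosome 8 had 11.6 peaks per Mb on its sparser arm, and chromosomes 9 and 10 had 3.11 and 2.53. The raised share did not follow the density on all of them. In OMM2.3 it was 33.0% on the short and 86.3% on the long arm of chromosome 8, and 19.6% and 28.9% on chromosome 10. On chromosome 9 it was lower on the denser long arm, with 52.9% and 31.7%.

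**Figure D4:**
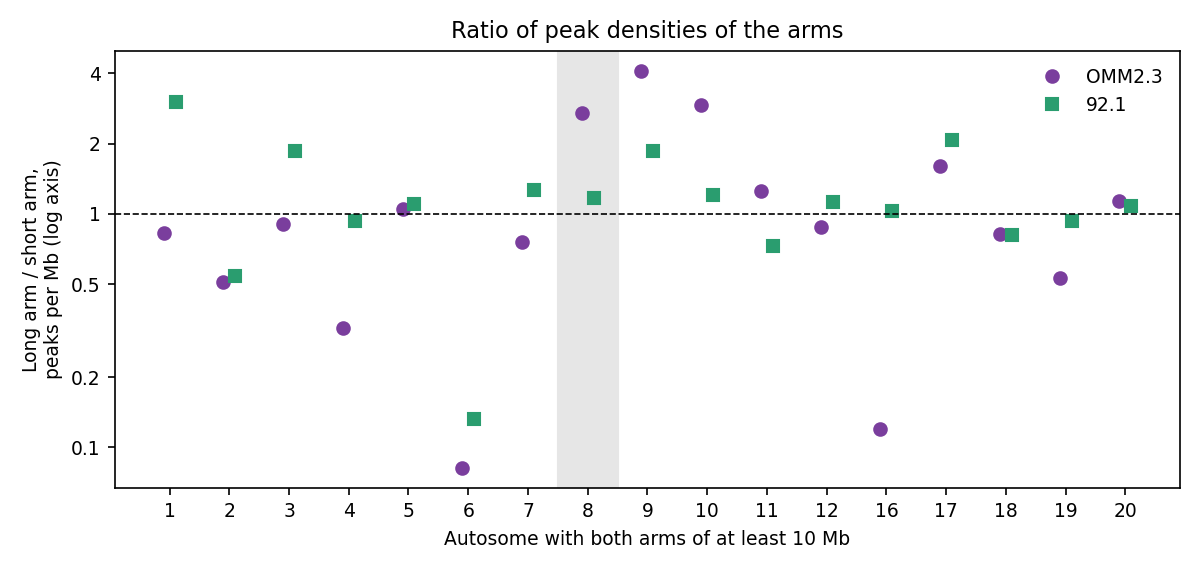
Ratio of long-arm to short-arm peak density (vertical log axis) for 17 autosomes (horizontal axis), circles for OMM2.3 and squares for 92.1, chromosome 8 shaded and a ratio of 1 dashed. Chromosome 8 stands at 2.71 in OMM2.3, the third highest circle, and at 1.17 in 92.1, the seventh highest square.

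Base composition ran with density in opposite directions in the lines. Over windows of the long arm, density and GC content had a Pearson correlation of 0.57 in OMM2.3 and -0.61 in 92.1 (n = 100; Spearman 0.58 and -0.63). On the short arm the values were 0.35 and -0.36 (n = 45; Spearman 0.50 and -0.36). The windows share a library and neighbouring sequence, and GC content runs with gene density along chromosomes.

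Ranked by GC content, the 34 long-arm windows of lowest GC had 26.3 peaks per Mb in OMM2.3 and 123 in 92.1. The 33 of highest GC had 37.9 and 96.0, so the order of the groups was turned. The short arm of OMM2.3 had 8.29, 12.0 and 14.5 peaks per Mb from the lowest to the highest 15 windows by GC, all below the lowest group of its long arm. Peaks themselves had a mean GC content at the summit of 45.6% and 44.1% on the short and long arm in OMM2.3, and of 41.3% and 39.4% in 92.1, where positions every 2000 bp along the arms had 41.5% and 39.6%.

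**Figure D5:**
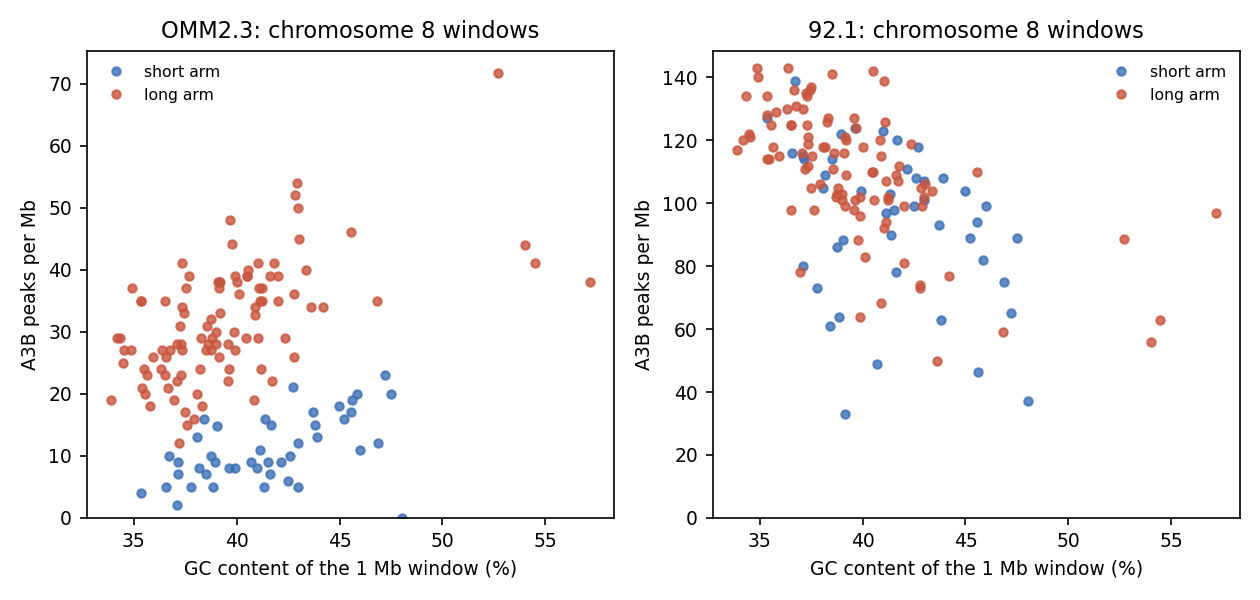
A3B peaks per Mb (vertical axis) against the GC content in percent of each 1 Mb window of chromosome 8 (horizontal axis), OMM2.3 left and 92.1 right. The long-arm points slope upward in OMM2.3 (Pearson 0.57) and downward in 92.1 (Pearson -0.61).

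Arms that differed in the number of peaks hardly differed in the median height of a peak. All peaks had passed a p of at most 0.05 with few fragments, which limits how far such medians could differ. The lower quartile of the fold was 2.51 and 2.34 on the short and long arm of OMM2.3, and 2.17 on both arms of 92.1. The median fold over IgG, computed by the caller with 1 added to both terms, was 2.60 on either arm in OMM2.3 and 2.40 on either arm in 92.1. Median −log10 p was 2.34 on both arms of OMM2.3, and 2.40 and 2.35 on the short and long arm of 92.1. Median width was 235.5 bp and 270.0 bp in OMM2.3 and 277 bp and 279 bp in 92.1. At least 8 fragments lay under 10.9% of short-arm and 12.0% of long-arm peaks in OMM2.3, near the 11.2% of its autosomal peaks, and under 3.63% and 2.43% in 92.1, against 1.14%.

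Few peaks passed a strict threshold. A p of at most 0.01 was met by 79.7% of short-arm and 74.9% of long-arm peaks of OMM2.3 (79.3% of its autosomal peaks) and by 73.3% and 73.4% of those of 92.1 (77.0%). A q of at most 0.05 was met by 1 short-arm and 3 long-arm peaks of OMM2.3 (0.192% and 0.0955%, against 0.351% of its autosomal peaks) and by 4 and 5 of 92.1 (0.0949% and 0.0455%, against 0.149%). A p of at most 1e-05 was met by 4 and 8 peaks of OMM2.3 (0.766% and 0.255%, against 0.728%) and by 31 and 62 of 92.1 (0.735% and 0.565%, against 0.853%). At the q and at the stricter p, neither line had a larger share of peaks on the long arm than on the short arm, and the intervals of the arms overlapped.

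The boundary lies inside the centromere, where alpha satellite, a short repeat in long tandem runs, fills chr8:43900001-45900000. OMM2.3 had 44 peaks in the short-arm part of this satellite and 24 in its long-arm part, 35.2 and 35.5 per Mb. In 92.1 there were 50 and 38, or 40.01 and 56.1 per Mb. The density of OMM2.3 in the satellite was therefore about the same on either side. In the 5 Mb before the satellite it was 11.4 peaks per Mb and in the 5 Mb after it 25.7, so that the step between the arms was present next to the centromere, while 92.1 had 92.4 and 103.0.

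Repeated sequence held the strongest OMM2.3 peak of either arm, while the second strongest of the long arm was in single-copy sequence. A peak counts as repeated if 50% or more of the 32-base words at its summit are found at several places in the genome. That was so for 30.8% of short-arm and 16.3% of long-arm peaks in OMM2.3, and for 11.9% and 8.89% in 92.1, where positions along the arms gave 15.8% and 10.4%. The top short-arm peak of OMM2.3, chr8:44174615-44174841 in the satellite, had a −log10 p of 8.19 and 40 fragments over a background of 11.0. Its top long-arm peak, chr8:45840485-45840735, had a −log10 p of 12.2 (deposited q 6.2e-07) and 35 fragments over 6.08. Words at these summits occurred a median of 758 and 755 times in the genome, so reads there cannot be placed uniquely.

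Peaks in single-copy sequence with a q of at most 0.05 were named one by one. OMM2.3 had a single such peak, chr8:138206246-138206655, in an intron of FAM135B, with a −log10 p of 6.68, a fold of 4.38 and a q of 0.0197. The strongest of 92.1, chr8:27641167-27641650, lay in an intron of SCARA3, a scavenger receptor gene of the short arm, with a −log10 p of 8.24, a fold of 5.48 and a q of 0.000628. The next on that arm, chr8:24567576-24567975, lay in an intron of the noncoding gene ADAM7-AS1 (q 0.0285).

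The long arm of 92.1 carried 4 of these single-copy peaks. The first, chr8:140501603-140501975, was intergenic, 9515 bp from the nearest start of CHRAC1, which encodes a histone-fold subunit of the CHRAC chromatin remodeller (−log10 p 7.12, q 0.00699). The others were chr8:72773102-72773640 in an intron of the potassium channel gene KCNB2 (q 0.0285), chr8:106184445-106184829 between genes at 85486 bp from OXR1 (q 0.0359) and chr8:134824092-134824413 in an intron of a noncoding gene (q 0.0411). None of these single-copy peaks overlapped a peak of the other line.

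The lines shared few peaks on either arm. Of the 3663 OMM2.3 peaks, 253 overlapped a 92.1 peak by at least 1 bp (6.91%, 6.11 to 7.78), against 3.62% of its autosomal peaks. They were 29 on the short arm (5.56%, 3.75 to 7.88) and 224 on the long arm (7.13%, 6.26 to 8.09). Overlaps of this kind become more frequent with the density and width of the peaks of the other line, so these shares are not compared at equal density. Peaks of 92.1 covered 3.01% of short-arm and 3.56% of long-arm bases, and those of OMM2.3 covered 0.320% and 0.966%. The share that peaks placed at random would give also depends on their width and was not computed. Neither the shares nor the pairs named below are therefore read as sharing beyond it. From the side of 92.1, 254 of its 15194 peaks were shared (1.67%, 1.47 to 1.89, against 1.48% of its autosomal peaks), 0.688% on the short arm and 2.05% on the long arm.

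Counting as shared only summits within 100 bp left 2.40% of the OMM2.3 peaks and 0.579% of the 92.1 peaks. The shared pairs with the highest lower −log10 p on the short arm lay in an intron of the zinc transporter gene SLC39A14, in repeated sequence (3.11 in OMM2.3 and 3.55 in 92.1), at 2555 bp from the start of CLU, the clusterin gene (3.11 and 3.65), and at 19156 bp from CCDC25 (3.88 and 2.85). Those of the long arm lay in an intron of AGO2, an Argonaute protein of RNA silencing (4.30 and 3.92), in an exon of the chromatin remodeller CHD7 (3.94 and 3.43) and at 69701 bp from HNF4G, a nuclear receptor gene (3.43 and 5.10).

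Peaks lay near transcription starts about as often as the bases of the arms do. Summits within 3 kb of a start were 18.4% of short-arm and 14.5% of long-arm peaks in OMM2.3 (20.6% of its autosomal peaks), and 20.2% and 13.99% in 92.1 (20.5%). Such positions are 18.4% of the short arm and 13.9% of the long arm. The share of peaks over the share of bases was 1.00 (0.826 to 1.20) and 1.04 (0.957 to 1.14) in OMM2.3, and 1.10 (1.03 to 1.17) and 1.01 (0.962 to 1.06) in 92.1. The interval excluded 1 for the short arm of 92.1 alone among these 4.

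On the short arm, fewer OMM2.3 peaks and more 92.1 peaks lay in gene bodies than the bases would give, but the interval of OMM2.3 included 1 in some alternatives. Protein-coding gene bodies cover 46.8% of it and held 39.7% of its OMM2.3 peaks (35.4 to 44), a ratio of 0.847 (0.757 to 0.940), and 50.04% of its 92.1 peaks (48.5 to 51.6), a ratio of 1.07 (1.04 to 1.10). With noncoding genes included, the ratios were 0.918 (0.849 to 0.986) and 1.04 (1.02 to 1.07). With peaks in single-copy sequence alone, an alternative chosen after the data had been seen, the OMM2.3 ratios were 0.932 (0.828 to 1.04) and 0.937 (0.858 to 1.01), and without the 3 Mb next to the boundary the ratio for all genes was 0.969 (0.899 to 1.04), intervals that all include 1. On the long arm the protein-coding ratios were 0.967 (0.924 to 1.01) and 1.02 (1.00 to 1.05). Exons did not depart from their share of bases beyond counting error on either arm or in either line, with ratios of 0.939 to 1.28.

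Of the 684 protein-coding genes of chromosome 8, the short arm holds 278 and the long arm 406. A peak lay in 92 short-arm genes (33.1%) and 262 long-arm genes (64.5%) in OMM2.3, against 46.2% of all autosomal protein-coding genes. In 92.1 the shares were 72.3% and 84.7%, against 67.0%. The genes named next come from lists of genes of DNA replication and repair, cancer genes and long genes, with each gene's number of peaks set beside what its length would hold at the density of its own arm and line. Peak numbers per gene are small and have no replicate.

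Among 8 genes of DNA replication and repair on the short arm, 4 had a peak in OMM2.3 and 8 in 92.1. Of all protein-coding genes of that arm, 33.1% and 72.3% had one. The repair genes were longer, with a median of 57.8 kb against 29.2 kb. They held 6 peaks in OMM2.3, where the arm density would give 9.20, and 116 in 92.1, where it would give 74.3. All protein-coding genes of the arm held 212 peaks against 248 in OMM2.3 and 2151 against 2005 in 92.1. MCPH1 (chr8:6406592-6648508), a gene of chromosome condensation and the DNA damage response, had 2 peaks in OMM2.3 and 36 in 92.1. TNKS (chr8:9555912-9782346), the telomere-associated poly-ADP-ribose polymerase tankyrase, had 2 and 33, and WRN (chr8:31033788-31176138), the helicase lost in Werner syndrome, had 1 and 21. PINX1, an inhibitor of telomerase, had 0 and 14, and POLB, the polymerase of base excision repair, which mends the sites left when uracil is cut out of DNA, had 0 and 3.

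The 16 such genes of the long arm lay near the density of their arm. They held 52 peaks in OMM2.3 against 47.5 at arm density, in 10 genes, and 162 in 92.1 against 166, in 14 genes. The shares of these genes with a peak were 62.5% and 87.5%, against 64.5% and 84.7% of all protein-coding genes of the arm. SPIDR (chr8:47260878-47736306), a scaffold of homologous recombination, had 21 peaks in OMM2.3 (arm density 15.0) and 44 in 92.1 (52.3). PRKDC (chr8:47773111-47960178), the catalytic subunit of the DNA-dependent protein kinase, had 6 (5.89) and 10 (20.6). NSMCE2, a SUMO ligase of the SMC5/6 complex, had 9 and 37, and ATAD2 had 4 and 13. NBN, a subunit of the MRN complex that senses double-strand breaks, had 3 and 11, and RAD54B, of homologous recombination, had 2 and 11. MCM4, a subunit of the replicative helicase, had 0 and 1, and the short genes TONSL and RECQL4 had 0 in both.

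On the short arm, fewer cancer genes had a peak in OMM2.3 than in 92.1, as was so for all its protein-coding genes (33.1% and 72.3%). The cancer genes were longer, with a median of 122.6 kb against 29.2 kb. Of the 7 cancer genes, 3 (42.9%) had a peak in OMM2.3, with 19 peaks against 24.97 at arm density. In 92.1, 6 (85.7%) had a peak, with 258 against 202. DLC1 (chr8:13083361-13604610), a tumour suppressor gene, had 4 peaks in OMM2.3 (arm density 6.05) and 83 in 92.1 (48.9). NRG1, the growth factor that activates ERBB receptors, had 13 and 133. FGFR1, a receptor tyrosine kinase, had 0 and 8, and DUSP4, a phosphatase of MAP kinases, had 0 in both.

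On the long arm 7 of 10 cancer genes had a peak in OMM2.3, with 45 peaks against 48.8, and 10 of 10 in 92.1, with 188 against 170. Of all protein-coding genes of that arm, 64.5% and 84.7% had one. PTK2 (chr8:140657900-141002216), the gene of focal adhesion kinase, had 17 peaks in OMM2.3 (10.8 at arm density) and 52 in 92.1 (37.9). ASAP1, an Arf GTPase-activating protein, had 9 and 38. LYN, a SRC-family kinase, had 1 (4.23) and 22 (14.8). MYC (chr8:127735434-127742951), a transcription factor and a long-arm oncogene, is only 7.52 kb long and had 0 peaks in OMM2.3 and 1 in 92.1, where its length would hold 0.237 and 0.827. PTP4A3, a phosphatase gene linked to metastasis in uveal melanoma, had 0 and 2.

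Long genes gave the largest counts. The 7 protein-coding genes of 500 kb or longer on the short arm held 41 peaks in OMM2.3, against 81.7 at arm density, and 665 in 92.1, against 659.9. DLGAP2 (chr8:737628-1708476), a scaffold of the postsynaptic density, had 0 peaks in OMM2.3 (arm density 11.3) and 26 in 92.1 (91.0). CSMD1 (chr8:2935353-4994972), the longest of them at 2059.6 kb, had 10 (23.9) and 143 (193). SGCZ, a sarcoglycan gene, had 7 (13.4) and 158 (108).

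The 11 long genes of the long arm held 259 peaks in OMM2.3 against 283 and 1059 in 92.1 against 989. ZFPM2, a cofactor of GATA factors, had 42 peaks in OMM2.3 (38.2) and 170 in 92.1 (134). CSMD3 had 24 (38.2) and 145 (134). TRAPPC9 (chr8:139727725-140458579), a subunit of a vesicle-tethering complex, was the reverse, with 31 (23.01) and 53 (80.4), and part of it lies in the third sparsest window of the arm in 92.1. NKAIN3, which lies within chr8:62200001-63200000, the third sparsest window of the arm in OMM2.3, had 12 (24.1) in that line and 78 (84.2) in 92.1.

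The defensin genes, which encode small antimicrobial peptides, form clusters with near-identical copies on the outer short arm. Of 26 genes named DEFA or DEFB, 1 had a peak in OMM2.3 and 7 in 92.1, with 1 and 8 peaks where the arm density would give 1.20 and 9.69. Reads from these copies cannot be told apart, and 98.9% of positions in the window chr8:7200001-8200000, which holds most of the DEFB copies, were repeated. It was the third sparsest short-arm window of 92.1, with 44 peaks.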

How the data were processed

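The authors sequenced paired-end libraries, aligned them to GRCh38 with Bowtie2 2.2.5, removed duplicates and called the peaks of each A3B library with MACS2 2.2.7.1, with a p threshold of 0.05 and the IgG of that line as control. FastQC 0.11.9, deepTools 3.5.1 and ChIPseeker are also listed in the submitters' processing notes. The deposited score is the integer part of 10 times −log10 p. The deposited fold is a ratio of scaled A3B fragments to IgG background with 1 added to both, and the −log10 p-value and the −log10 q-value of the summit were deposited beside it. The IgG libraries were not analysed here, and 0 columns of values for single samples were left unused.

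Arms, windows and all comparisons were described, not tested, since each group held 1 library. Density is peaks per Mb outside assembly gaps. Intervals at 95% are exact Poisson for densities and Clopper-Pearson for shares and ratios. Fragments and background were solved from fold and p-value within 0.002 of the deposited −log10 p, at a scaling of A3B fragments of 0.867 in OMM2.3 and 1.0 in 92.1, and the solution was tested on simulated data. Library totals were not used here, and the recovered fragments per peak show the precision. Centromeres of other autosomes were placed at the middle of the longest run of sequence with at least 50% identity at multiples of the length of the alpha satellite repeat. Words of 32 bases were counted in the primary chromosomes and scaffolds, for the stretch at each summit. Genes are those of GENCODE 44, readthrough genes left out, and a gene held a peak where they overlapped.

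The chromosome, the gene lists and the comparisons were chosen with earlier results of these data known. Named are genes of those lists, protein-coding genes of at least 500 kb, DEFA and DEFB genes, the 5 strongest peaks per line and arm, the 3 densest and sparsest windows, and the 3 shared pairs per arm whose lower −log10 p was highest. Of the named sets, a part is printed. Alternatives covered the threshold, the bases counted, repeats, window length, overlap and promoter width. Python 3.11.15, numpy 2.4.6, scipy 1.17.1, pandas 2.3.3, numba 0.67.0 and matplotlib 3.10.9 were used.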

Additional observations from a re-analysis of the deposited data

Results flagged for a closer look

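Several values of chromosome 8 pointed in opposite directions in the lines. None of these differences was tested, since each line has 1 library.

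The share of short-arm peaks in gene bodies over the share of bases was 0.918 in OMM2.3 and 1.04 in 92.1, with intervals of counting error on opposite sides of 1. For protein-coding gene bodies of the short arm it was 0.847 and 1.07, and over both arms 0.922 (0.884 to 0.960) and 1.03 (1.01 to 1.05). In alternatives chosen after the data had been seen, the short-arm ratios of OMM2.3 and 92.1 were 0.969 and 1.02 for gene bodies and 0.888 and 1.05 for protein-coding gene bodies without the 3 Mb next to the boundary. With peaks in single-copy sequence they were 0.937 and 1.02, and 0.932 and 1.04. The OMM2.3 interval then included 1 for gene bodies in both alternatives and for protein-coding gene bodies in single-copy sequence.

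Correlations over 1 Mb windows also had opposite signs. That of density and GC content was 0.35 in OMM2.3 and -0.36 in 92.1 on the short arm and 0.57 and -0.61 on the long arm. That of density and the share of peaks with a raised IgG background was 0.47 in OMM2.3 and -0.20 in 92.1 on the long arm.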

How the results depend on the processing

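Of 66 alternative values for 18 results, 47 lay within the interval of the value first given, 16 outside it and 3 on the other side of 1. At a p of at most 1e-05 the ratio of long to short arm turned to 0.902 in OMM2.3 and 0.902 in 92.1. In 92.1 it also turned at a q of at most 0.05, to 0.564. All 3 intervals included 1 and also the value first given. At that q the ratio of long to short arm was 1.35 in OMM2.3 (0.109 to 71.0), from 4 peaks in all. In single-copy sequence it was 3.09 in OMM2.3. The ratio of 92.1 to OMM2.3 became 4 at that q and 10.3 in single-copy sequence on the short arm, and 7.75 at a p of at most 1e-05, 1.67 at that q and 3.804 in single-copy sequence on the long arm. Means in place of medians gave a ratio of IgG background of 1.08 in OMM2.3 and 0.952 in 92.1. In windows of 5 Mb, 100% of the short-arm windows of 92.1 exceeded the autosomal median. Shared peaks were 4.48%, 2.40% and 5.20% of OMM2.3 peaks and 1.09%, 0.579% and 1.29% of 92.1 peaks with an overlap of 50% of the shorter peak, with summits within 100 bp and with a p of at most 0.01. The cause of these changes was not tested, beyond the smaller numbers of peaks left.

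No paired analysis was possible because a group is 1 library. Replicates could not be left out for the same reason. Few fragments per peak limit every value.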

Other observations

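The peaks nearest to the boundary lay in satellite in both lines. In OMM2.3 they were 36.6 kb before it on the short arm (−log10 p 3.05) and 20.3 kb after it on the long arm (3.94). In 92.1 they were 84.5 kb before it (3.00) and 18.9 kb after it (1.75). Of the peaks on the short-arm side of chr8:43900001-45900000, 44 of 44 in OMM2.3 and 45 of 50 in 92.1 were in repeated sequence, and on its long-arm side 24 of 24 and 38 of 38, so the lists do not show whether the density of OMM2.3 changes within the satellite or at an edge of it.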
